A study of Mus musculus with 40 samples.

Results

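The comparison set the duodenum of mice given hexavalent chromium, Cr(VI), against that of control mice. Its members are the 7 libraries labelled with Cr(VI) at 180 ppm and the 5 labelled control, 12 of the 40 libraries of the series, chosen by label alone and read at all 3045 probes of the count table. The mice were male, wild-type B6C3F1, a hybrid laboratory strain, exposed for 28 days, with Cr(VI) given in drinking water. The labels give no age and no vehicle or diet for the control group, and do not say that each library came from its own animal, so p-values measure the spread between libraries. 2 further groups of 7 libraries each, with the fungicides captan at 12000 ppm or folpet at 16000 ppm in the diet, served here only to ask where the Cr(VI) libraries differed from another exposure of the same tissue. RNA was lysed from formalin-fixed, paraffin-embedded duodenum scraped off slides and was read with TempO-Seq, in which pairs of short probes that meet on a transcript are ligated, amplified and counted.

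Hexavalent chromium enters cells through anion transporters as chromate and is reduced there by thiols and ascorbate to trivalent chromium. In rodents, high oral doses reach the upper small intestine and are known for injury to the villi and for tumours of the duodenum. The duodenal villus is covered by enterocytes, which absorb and repackage fat, carry drug-metabolising enzymes and are renewed from dividing cells in the crypts. Beneath and between them lie lymphocytes, antigen-presenting cells, stroma and smooth muscle, and pancreas lies against the outer wall.

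Total counts ran from 2121824 to 6220801 in the control libraries and from 3787561 to 7904819 in the Cr(VI) libraries. Duodenal epithelium was present in all 12, with the summed level of 13 enterocyte genes at 24778 to 63569 CPM in the control libraries and 64539.8 to 80594 CPM in the Cr(VI) libraries. These ranges did not overlap, and the sum includes Apoa1, Klf4 and Krt8, which were called higher. Whether the sections differed in epithelial content, and its part in the results below, was not tested. Levels are in CPM, counts scaled to library size with TMM (trimmed mean of M-values) factors, per probe and not per length, so levels are not compared between genes. Transcripts of 18 genes of pancreatic acinar cells, the enzyme-making cells of the pancreas, held 45.9 ± 21.9% of control counts (mean ± SD, n = 5) and 50.8 ± 24.7% of Cr(VI) counts (n = 7), with an exact 2-sided permutation p = 0.72. The range was 19.0 to 73.4% in control and 3.33 to 79.3% after Cr(VI), and 2 control and 4 Cr(VI) libraries lay over 50%. Control replicate 5 was the shallowest library of the comparison and had 1460 probes above 0, the fewest. Because fixed sections were lysed whole, fewer cells of a type and less RNA per cell cannot be told apart in what follows.

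Genes called higher after Cr(VI) included members of the lists of fat handling, hypoxia, the villus and drug metabolism, and genes called lower included members of the lists of antigen presentation, lymphocytes, the cell cycle and protein folding. The share called was 36% for fatty acid, 23.1% for enterocyte, 16.7% for antigen presentation and 13.6% for cytosolic chaperone genes. It was 12.5% for hypoxia, 10.3% for drug metabolism, 10% for cell cycle and 9.09% for lymphocyte genes. The proteasome, myeloid and endoplasmic reticulum lists, at 6.67%, 5% and 4.35%, lay near the 5.94% of all probes. No list was tested against all probes, and in small lists a share rests on few calls. Of 2541 tested probes, 151 (5.94%) passed at an adjusted p under 0.05 in edgeR's quasi-likelihood test, 75 higher (2.95%) and 76 lower (2.99%), and these belong to 148 genes. The median log2 fold change over all probes was -0.03, while the called probes had medians of 0.82 for the rises and -0.95 for the falls. The groups did not overlap for 51 probes (2.01%), 32 higher (1.26%) and 19 lower (0.748%), and 46 of the 51 were called. The split of higher to lower was 103 to 60 when the acinar probes were taken out before scaling. Of the 151, 38 were still called without the libraries over 50% acinar and 148 with the acinar share as a covariate. With library totals in place of TMM, which moved the median of all probes to -0.30, 3 probes were called higher and 11 lower.

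**Figure D1:**
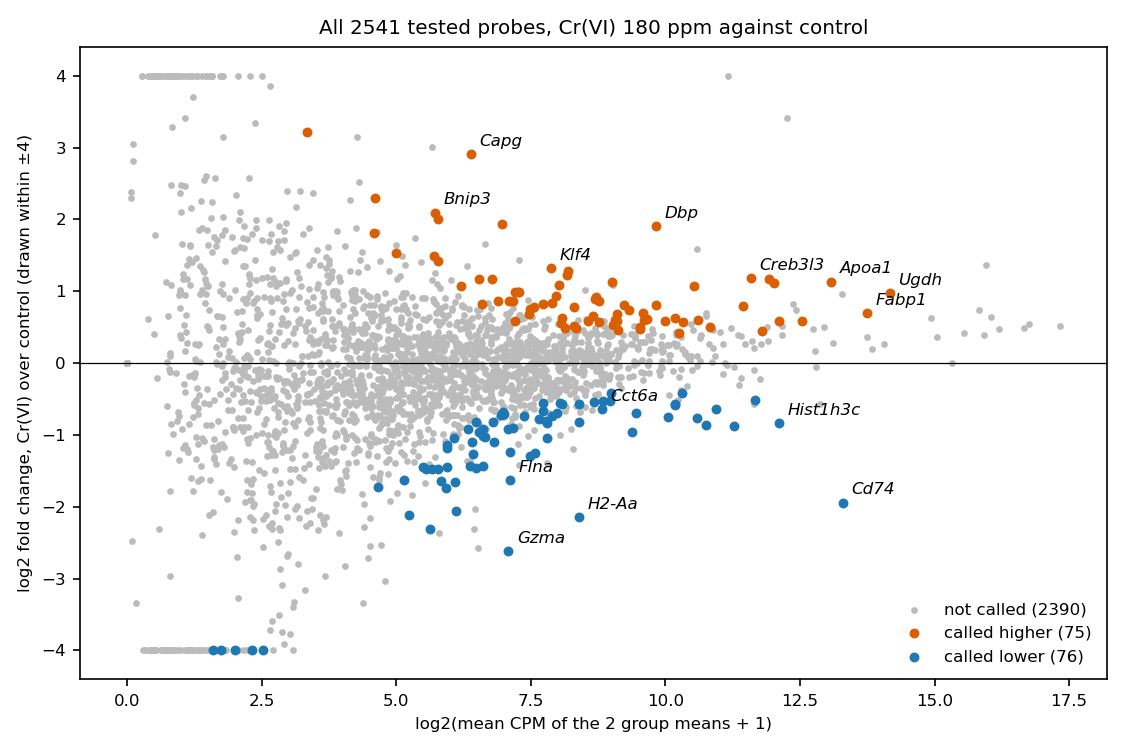
Each point is 1 of 2541 tested probes, with its mean level in control and Cr(VI) libraries on the x axis (log2 CPM + 1) and the log2 fold change of Cr(VI) over control on the y axis, drawn within 4 either way. Orange marks the 75 probes called higher and blue the 76 called lower; Cd74 combines a high level with a log2 fold change of -1.95.

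Creb3l3 encodes a membrane-bound transcription factor that controls lipid metabolism in liver and intestine. It was at 2408, 2215, 1819, 1947 and 982 CPM in control replicates 1 to 5, and from 3425 to 4646 CPM with a median of 4265 in the Cr(VI) libraries. The groups did not overlap, and the log2 fold change was 1.18 ± 0.17 (± standard error here and below; adjusted p = 1.17e-05, edgeR). Of the 25 tested genes of fatty acid oxidation and PPARA targets, 9 rose and 0 fell, with a median of 0.45 log2 against -0.03 for all probes. Ppara, the nuclear receptor that drives fatty acid oxidation, rose from 96.3 ± 27.2 to 174 ± 32.8 CPM. Each Cr(VI) library lay above each control library for Ppara, 128 to 229.5 against 64.9 to 124 CPM. Eci1, which prepares unsaturated fatty acids for beta-oxidation, rose from 171 ± 85.9 to 328 ± 23.6 CPM, a log2 fold change of 0.93 ± 0.21. Aldh3a2, a fatty aldehyde dehydrogenase, rose by 0.60 ± 0.14 log2, and its other, much lower probe was not called. Fabp1, the fatty acid carrier of enterocytes, rose from 10489.8 ± 4428 to 16968 ± 2718 CPM, with overlapping groups. Lipa, the lysosomal acid lipase, rose by 1.08 ± 0.24 log2. The fatty acid list had 0 calls with library totals alone and 3 with control and Cr(VI) libraries alone in the fit. Its calls numbered 5 without control replicate 5 and 5 without the libraries over 50% acinar. The call ended for Fabp1 without the libraries over 50% acinar. Fabp1 missed the threshold without control replicate 1, control replicate 5 or Cr(VI) replicate 1.

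Of 21 genes of sterol and fatty acid synthesis, 2 rose and 0 fell (median 0.28 log2, and -0.22 with library totals alone). Outside these counts, the second probe of the fatty acid elongase Elovl6, chosen after its value was seen, was called at 1.17 ± 0.29 log2. Its main probe was not called. Me1, the malic enzyme that supplies NADPH for lipid synthesis, rose from 169.7 ± 92.8 to 414 ± 59.8 CPM, with every Cr(VI) library above every control library. Insig1, which restrains sterol synthesis, rose by 0.99 ± 0.22 log2. Hmgcs1, an enzyme of sterol synthesis, stood at 0.21 ± 0.45 log2 and fatty acid synthase, Fasn, at 0.40 ± 0.32, and the test called neither (adjusted p = 0.879 and 0.568, edgeR). Of 13 genes of steroid dehydrogenases and bile acid handling, 2 rose. Hsd17b11, a lipid-droplet dehydrogenase, went from 2407 ± 1029 to 5402 ± 991 CPM, 1.17 ± 0.19 log2. Hsd3b2, a steroid dehydrogenase, was at 44.1, 22.1, 24.3, 13.6 and 0 CPM in control replicates 1 to 5 and from 54.9 to 109.9 CPM with a median of 90.8 after Cr(VI). Its groups did not overlap, and control replicate 5 held no count. Hsd11b2, which inactivates cortisol-like steroids, was at 0.28 ± 0.35 log2 and the bile acid receptor Nr1h4 at -0.24 ± 1.06, neither called. The threshold was missed for Insig1 without the libraries over 50% acinar.

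**Figure D2:**
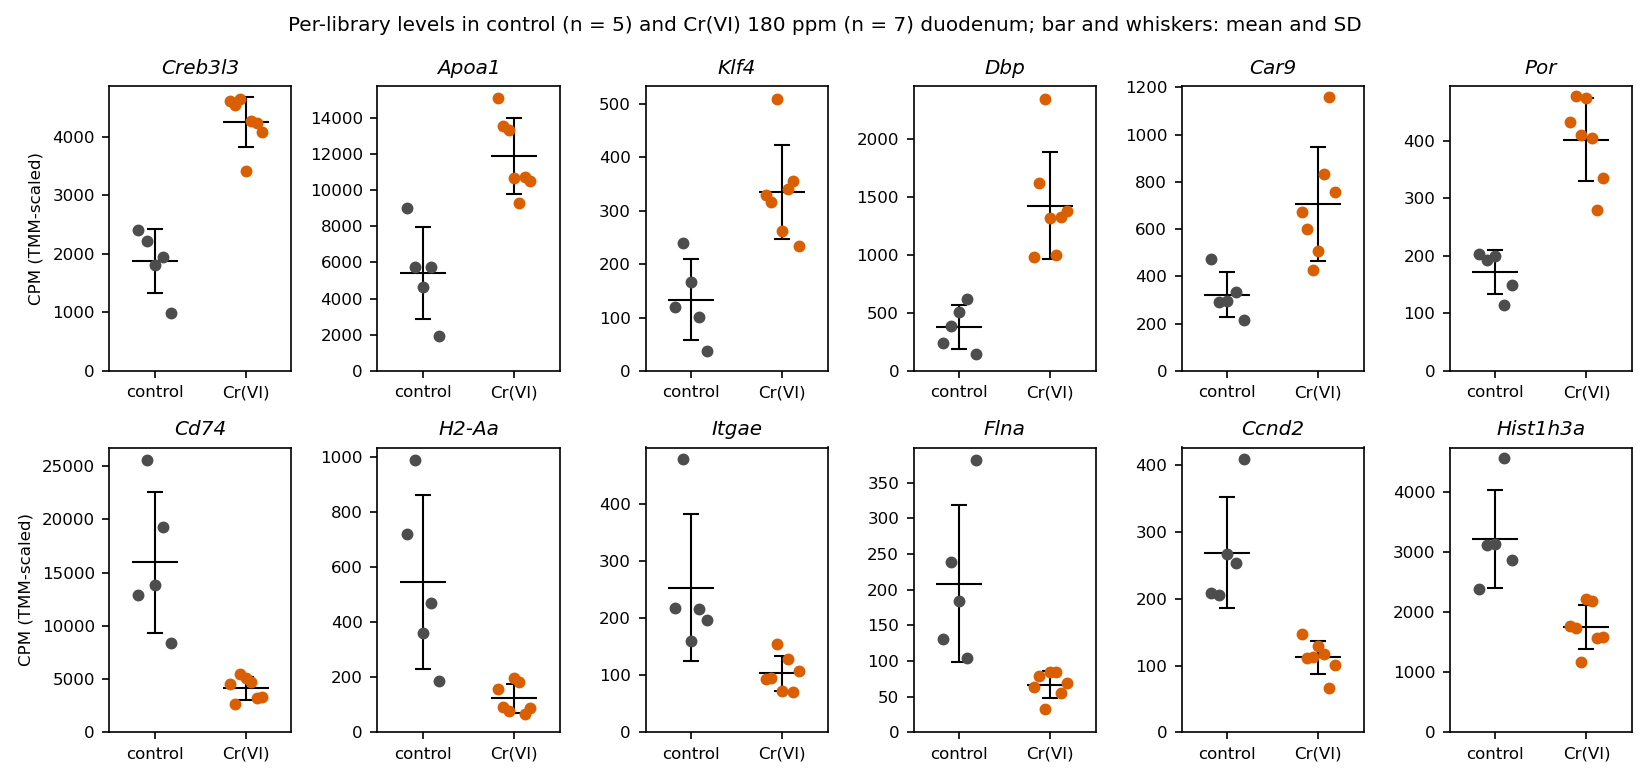
Each point is the level of a gene in 1 library, in CPM on TMM-scaled library sizes, for control (n = 5, grey) and Cr(VI) (n = 7, orange), with the mean and SD as a bar and whiskers; each panel starts at 0. The Cr(VI) libraries of Creb3l3, Apoa1, Dbp and Por lie wholly above the controls, those of Cd74, Itgae, Flna, Ccnd2 and Hist1h3a wholly below, and H2-Aa, Klf4 and Car9 overlap.

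Cells sense low oxygen through HIF transcription factors, which bind short core motifs near target genes such as Bnip3 and Car9. Of 16 tested hypoxia genes, 2 rose and 0 fell, and their median was 0.71 log2. Bnip3, a receptor for the removal of mitochondria, was at 17.5, 12.9, 15.6, 49.6 and 0 CPM in control replicates 1 to 5 and from 33.3 to 124 CPM with a median of 91.4 after Cr(VI). Control replicate 5 had no count for it, and only the lowest Cr(VI) library fell within the control range. Its log2 fold change was 2.10 ± 0.42 (adjusted p = 0.00107, edgeR). Car9, a carbonic anhydrase at the cell surface, rose from 322 ± 94.3 to 707 ± 242 CPM. Vegfa, the growth factor of blood vessels, was at 150.3 ± 98.2 CPM in control and 173 ± 32.4 CPM after Cr(VI) and was not called (adjusted p = 0.755, edgeR). Of 13 glycolytic enzymes, 2 rose. Pfkl, the liver form of phosphofructokinase, rose by 1.49 ± 0.34 log2 and the aldolase Aldoa by 0.83 ± 0.20. Hexokinase 1, Hk1, was at -0.93 ± 0.58 log2 and Pfkp, the platelet form of phosphofructokinase, at 0.096 ± 0.20, neither called. Outside the called probes of the hypoxia list, the second probe of Bhlhe40, chosen after its value was seen, was called at 1.42 ± 0.43 log2 while its main probe was not. The call did not hold for Aldoa without the libraries over 50% acinar, and for Pfkl with limma-voom.

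Bnip3 had the largest log2 rise of the hypoxia genes called, so the 250 bases before its RefSeq start are shown, with the letters ACGTG and GCGTG, the core of the hypoxia response motif, in capitals on either strand. The window is chr7:138909507-138909756 of GRCm38.p6, minus strand, written 5′ to 3′ along the gene.
Bnip3: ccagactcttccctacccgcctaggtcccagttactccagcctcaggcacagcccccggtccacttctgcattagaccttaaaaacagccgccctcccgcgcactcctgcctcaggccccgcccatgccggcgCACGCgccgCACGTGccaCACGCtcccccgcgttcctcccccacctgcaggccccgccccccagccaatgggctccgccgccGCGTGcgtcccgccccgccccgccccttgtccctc
Matches began 117, 108, 107, 99 and 35 bases before the start (-117 to -35, 5 in all), and those at -108 and -107 share their central letters. Over the windows of all tested genes, 53.5% hold at least 1 of these motifs on either strand (20.2% ACGTG and 43.4% GCGTG), and over those of the genes called higher 49.3% do (29.3% and 30.7%). A match describes the letters of the window and no binding was measured.

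Of 13 enterocyte genes, 3 rose and 0 fell (median 0.30 log2, and -0.00055 with library totals alone). Apoa1, the apolipoprotein secreted with dietary fat, was at 9032, 5719, 4646, 5753 and 1903 CPM in control replicates 1 to 5 and from 9258 to 15089 CPM with a median of 10722 after Cr(VI). No Cr(VI) library fell within the control range, and control replicate 5 was the lowest of all. Klf4, a transcription factor of differentiated villus cells, rose by 1.32 ± 0.24 log2 and the keratin Krt8 by 0.58 ± 0.14, while Apoc3, another apolipoprotein, was not called at 0.24 ± 0.27. Dbp, an output transcription factor of the circadian clock, was at 239.5, 391, 505, 618 and 149.5 CPM in control and from 979 to 2348 CPM with a median of 1331 after Cr(VI), with no overlap. Its log2 fold change of 1.90 ± 0.31 passed under all the alternative settings and with each library left out. It was the only one of 6 clock genes called, with Cry1 at 0.80 ± 0.39 and Hlf at 0.22 ± 0.82 log2, and the labels give no time of day for tissue collection. The call was lost for Apoa1 and Krt8 without the libraries over 50% acinar.

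Genes of drug metabolism rose in a few members. Of 39 tested genes, 4 rose and 0 fell (median 0.28 log2, and 0.0057 with library totals alone). Outside the list, the glucuronosyltransferase gene Ugt2b35, chosen after its value was seen, was called lower with a log2 fold change of -0.95 ± 0.28. Por, the reductase that passes electrons to cytochrome P450 enzymes, was at 204, 192, 200.2, 115 and 149.5 CPM in control replicates 1 to 5 and from 280.2 to 477 CPM with a median of 411 after Cr(VI). The groups did not overlap, and the log2 fold change was 1.22 ± 0.19 (adjusted p = 5.68e-05, edgeR). The xenobiotic receptor Nr1i3 (CAR) rose by 0.87 ± 0.17 log2, with both of its probes called. Fmo5, a flavin monooxygenase, rose by 0.73 ± 0.16 and the efflux pump Abcb1a by 0.81 ± 0.24. Cyp1a1, the target of the aryl hydrocarbon receptor, ranged from 0 to 307 CPM among the Cr(VI) libraries against 0 to 34.02 in control and was not called. Cyp3a11 was at -0.28 ± 0.38 log2, not called. The call ended for Abcb1a without the libraries over 50% acinar and with limma-voom. Without control replicate 4, control replicate 5, Cr(VI) replicate 1 or Cr(VI) replicate 2, Abcb1a missed the threshold.

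Calls made up 7.5% of the tested antioxidant genes, near the 5.94% called over all probes. NRF2 is a transcription factor that induces glutathione and detoxification enzymes when thiols are oxidised. Of 40 genes of its targets, glutathione and antioxidants, 3 rose and 0 fell, with a median of 0.20 log2 and of -0.11 with library totals alone. Ugdh, which makes the sugar donor for glucuronidation, rose from 12460.1 ± 5012 to 24458 ± 6775 CPM and catalase, Cat, from 905 ± 244 to 1397 ± 183 CPM. Maff, a small partner of NRF2, rose by 1.17 ± 0.27 log2. Nqo1, a quinone reductase and a widely used NRF2 target, was at 173, 103, 109.6, 225 and 90.97 CPM in control replicates 1 to 5 and from 90.8 to 192 CPM with a median of 137 after Cr(VI). The groups overlapped throughout, and the log2 fold change was -0.00041 ± 0.40. Gclc, the first enzyme of glutathione synthesis, was at 11.98 ± 11.9 CPM in control and 11.3 ± 3.10 CPM after Cr(VI). Heme oxygenase 1, Hmox1, had a count in 1 control library and none after Cr(VI). Metallothioneins bind metals: Mt1 was at 25.7 ± 14.9 CPM in control and 17.6 ± 16.95 CPM after Cr(VI), Mt2 at 0.464 ± 1.04 and 2.90 ± 4.03, and the test called neither. Of 4 iron genes, Alas1, the first enzyme of heme synthesis, rose by 0.75 ± 0.23 log2 at its main probe and not at the other. The iron importer Slc11a2 stood at 771 ± 315 CPM in control and 2307 ± 1617 CPM after Cr(VI) (adjusted p = 0.069, edgeR, not called), and the erythroid Alas2 at -0.88 ± 1.27 log2. Calls of the NRF2 list numbered 1 without control replicate 5 and 0 without the libraries over 50% acinar. The threshold was missed for Ugdh, Cat, Maff and Alas1 without the libraries over 50% acinar, and for Ugdh and Alas1 with limma-voom. Leaving out control replicate 5 ended the call for Cat. Over the 12 single omissions, the call was missed for Ugdh in 7 and Alas1 in 7.

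Mitochondrial and sugar pathways gave 2 falls. Of 19 genes of the TCA cycle and respiratory chain, 2 fell and 0 rose. Tfam, which packages and transcribes mitochondrial DNA, fell from 157 ± 58.6 to 95.96 ± 23.9 CPM, and cytochrome c, Cycs, from 324 ± 80.5 to 218 ± 26.6. Citrate synthase, Cs, was at 0.46 ± 0.16 log2 and Idh3a at -0.27 ± 0.17, and the test called neither of these TCA enzymes (adjusted p = 0.0767 and 0.399, edgeR). Of 4 genes of gluconeogenesis and the pentose phosphate path, 0 were called, with G6pc at -0.96 ± 1.14, G6pdx at -0.23 ± 0.26 and Taldo1 at 0.44 ± 0.18 log2. The call did not hold for Cycs without the libraries over 50% acinar, with limma-voom and with the acinar probes taken out. Tfam missed the threshold without control replicate 3, control replicate 4, Cr(VI) replicate 2 or Cr(VI) replicate 5. Across the 12 leave-one-out fits, the call was lost for Cycs in 6.

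Of 90 tested genes of the cell cycle and DNA replication, 9 fell and 0 rose, with a median of -0.45 log2. Their summed level was 4349.8 to 5547 CPM in the control libraries and 2853 to 4146 CPM in the Cr(VI) libraries. That sum includes the 9 called genes, and 20 of the 90 had a positive log2 fold change. Ccnd2, a cyclin that carries cells out of G1, was at 209, 205, 266, 253 and 409 CPM in control replicates 1 to 5 and from 67.03 to 147 CPM with a median of 113 after Cr(VI). The groups did not overlap, and the log2 fold change was -1.25 ± 0.23; its other probe, at -1.22 ± 0.44, was not called. Mcm7, part of the replicative helicase, fell from 194 ± 107 to 81.8 ± 34.05 CPM, also without overlap. Cdk4, a kinase partner of D cyclins, fell with a log2 fold change of -0.81 ± 0.19, the S-phase cyclin Ccna2 with -0.84 ± 0.21, and the mitotic genes Plk1 and Cenpf with -1.14 ± 0.30 and -1.73 ± 0.45. The second probes of Cdk4 and Ccna2 were not called. The proliferation marker Mki67 was at -0.57 ± 0.56 log2, not called. Outside the list, the replication-dependent histone genes Hist1h3a and Hist1h3c fell with log2 fold changes of -0.88 ± 0.17 and -0.84 ± 0.16, though probes of near-identical histone copies may share reads. Nup37, a nuclear pore protein, fell with -1.46 ± 0.30. Of 11 crypt and Wnt target genes, 0 were called: Myc was at -0.55 ± 0.56, Ephb2 at -0.23 ± 0.61 and Cd44 at -0.42 ± 0.31 log2. The list's calls numbered 5 without control replicate 5 and 0 without the libraries over 50% acinar. The call was lost for Ccnd2, Mcm7, Cdk4, Ccna2, Plk1, Cenpf, Hist1h3a, Hist1h3c and Nup37 without the libraries over 50% acinar, and for Ccna2, Plk1 and Cenpf with limma-voom. Without control replicate 5, Ccna2, Plk1 and Cenpf missed the threshold.

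Of 28 p53, growth arrest and checkpoint genes, 1 fell and 0 rose, and of 22 DNA repair genes 0 were called, with medians of -0.12 and 0.10 log2; the latter was -0.12 with library totals alone. H2afx, the histone variant phosphorylated at DNA breaks, fell with a log2 fold change of -0.74 ± 0.24. The p53 target Cdkn1a was at 291 ± 92.5 CPM in control and 329 ± 32.3 CPM after Cr(VI), Trp53 at -0.32 ± 0.20 log2 and Mdm2 at -0.27 ± 0.28, and the test called none of these. In the repair list Brca1 stood at -0.59 ± 1.21 and Xpc at 2.17 ± 1.11 log2, with means under 20 CPM in both groups and neither called. Of 26 apoptosis genes, 2 rose and 1 fell. Bnip3 and Cycs, given above, are among them. Casp1 was at 0.19 ± 0.27 and Bax at 0.81 ± 0.49 log2, neither called. The call ended for H2afx without the libraries over 50% acinar, with limma-voom, with the acinar probes taken out and with no filter. Among the 12 fits without 1 library, calls ended for H2afx in 9.

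Of 22 genes of cytosolic chaperones, 3 fell and 0 rose, with a median of -0.35 log2. Fkbp4, a co-chaperone of Hsp90, was at 1565, 1218, 1316, 1773 and 1050.3 CPM in control replicates 1 to 5 and from 732 to 1042 CPM with a median of 952 after Cr(VI), without overlap. Cct6a, a subunit of the chaperonin that folds actin and tubulin, fell from 551 ± 108 to 353 ± 54.1 CPM, and Hsp90aa1 from 1391 ± 166 to 933 ± 167, its other probe not called. Hspa1b and Hspa1a, the inducible Hsp70 genes, are near-identical copies. Hspa1b was at 143 ± 86.2 CPM in control and 28.3 ± 18.5 CPM after Cr(VI) and Hspa1a at 13.8 ± 17.9 and 1.24 ± 2.11, and neither was called (adjusted p = 0.0585 and 0.133, edgeR). In the endoplasmic reticulum list of 23 genes, the lectin chaperone Canx alone was called, lower with a log2 fold change of -0.52 ± 0.14. Hspa5 was at -0.22 ± 0.44, the stress factor Ddit3 at 0.61 ± 0.42 and Atf4 at -0.37 ± 0.19 log2, none called. Rpn1, a subunit of the enzyme that attaches sugars to new proteins, fell from 2396 ± 401 to 1542 ± 210.2 CPM. Of 15 proteasome subunits, Psmd2 fell with a log2 fold change of -0.56 ± 0.16, and Psma2, Psmb4 and Psmc1 at -0.28 ± 0.20, 0.28 ± 0.60 and 0.52 ± 0.37 were not called. The list of cytosolic chaperones had 0 calls without the libraries over 50% acinar. The threshold was missed for Fkbp4, Cct6a, Hsp90aa1, Canx, Rpn1 and Psmd2 without the libraries over 50% acinar, and for Hsp90aa1 and Psmd2 with limma-voom and with the acinar probes taken out, and for Hsp90aa1 with no filter. Canx missed the threshold without control replicate 1 or control replicate 4. Over the 12 single omissions, the call was missed for Hsp90aa1 in 10 and Psmd2 in 7.

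MHC class II molecules display peptides to helper T cells, and Cd74, their invariant chain, guards the peptide groove during assembly. Cd74 was at 12868, 25588, 13843, 19248 and 8371 CPM in control replicates 1 to 5 and from 2666 to 5523 CPM with a median of 4510.1 after Cr(VI). The groups did not overlap, and the log2 fold change was -1.95 ± 0.29 (adjusted p = 5.68e-05, edgeR). H2-Aa, the class II alpha chain, was at 723, 989.8, 363, 470.3 and 186 CPM in control and from 67.3 to 198 CPM with a median of 91.1 after Cr(VI), where only the lowest control library reached into the Cr(VI) range. Both kept their calls in all alternative settings and with each library left out. They were the only 2 called of 12 genes of the list. The 12 genes summed to 11415 to 35073 CPM in the control libraries and 5696 to 9416 CPM in the Cr(VI) libraries. That sum includes Cd74 itself and does not show a fall of the whole list, in which 5 genes had a positive log2 fold change. H2-DMa, a class II editor, had no count in control and 1.94 ± 3.70 CPM after Cr(VI), not called.

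Genes of lymphocytes fell in 2 of 22 tested, with a median of -0.42 log2. Gzma, a granule protease of cytotoxic cells, was at 422, 415, 110.4, 93.1 and 118 CPM in control replicates 1 to 5 and from 23.3 to 71.8 CPM with a median of 24.5 after Cr(VI), without overlap. Itgae, the integrin that holds lymphocytes within the epithelium, fell from 254 ± 128 to 103 ± 30.1 CPM, with both probes called, no overlap between groups and no alternative that ended the call. The T cell gene Cd3d was at 0.809 ± 1.81 CPM in control with no count after Cr(VI), and the B cell gene Cd79a was at 44.6 ± 21.2 and 48.7 ± 16.9 CPM, neither called. Prkch, Fyn and Gimap6 lie outside the list and are named for being among the 12 largest falls, so they add no independent evidence on lymphocytes. Prkch, a protein kinase C of T cells and epithelia, fell with a log2 fold change of -2.31 ± 0.47 and the kinase Fyn with -2.06 ± 0.54. Gimap6, a GTPase of lymphocytes, fell with -1.66 ± 0.39 at its main probe and not at the other. The 22 genes summed to 651 to 2020.2 CPM in the control libraries and 562 to 967 CPM in the Cr(VI) libraries. That sum includes Gzma and Itgae and does not show a fall of the whole list, in which 6 genes had a positive log2 fold change. The call did not hold for Gzma and Gimap6 without the libraries over 50% acinar, and for Gzma, Fyn and Gimap6 with limma-voom. Without control replicate 2, Fyn missed the threshold.

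Myeloid and cytokine genes gave 1 call. Of 20 myeloid genes, the Fc receptor Fcgr3 fell from 84.5 ± 45.9 to 26.8 ± 20.2 CPM. The macrophage markers Cd68, C1qa and Csf1r, at 0.75 ± 0.56, -0.20 ± 0.25 and -1.99 ± 2.07 log2, were not called. Of 38 cytokine, NF-kB and interferon genes, 0 were called by edgeR, with a median of -0.36 log2. Tnf was at 12.7 ± 11.04 CPM in control and 9.99 ± 6.20 CPM after Cr(VI), Cxcl10 at 31.9 ± 18.7 and 11.7 ± 11.97, and Il1b had no count in control and 2.88 ± 4.92 CPM after Cr(VI). Of 12 immediate early factors, 2 rose and 1 fell. Fos rose from 287 ± 115 to 544 ± 157 CPM and Maff is given above, while Klf2, a factor of quiescent lymphocytes and endothelium, fell with a log2 fold change of -1.27 ± 0.36. Jun was at 0.75 ± 0.26 (adjusted p = 0.069, edgeR) and Egr1 at -0.55 ± 0.93 log2, neither called. The call was lost for Fcgr3, Fos and Klf2 without the libraries over 50% acinar, and for Klf2 with limma-voom. Leaving out control replicate 1 ended the call for Fcgr3. Klf2 missed the threshold without control replicate 5, Cr(VI) replicate 3 or Cr(VI) replicate 5.

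Of the lists given here with 0 calls by edgeR, some genes had an unadjusted p under 0.05. These were 5 cytokine, 3 stromal and 2 DNA repair genes and 1 gene each of the gluconeogenesis, crypt, glucocorticoid, endothelial, neuron and glia, acinar and goblet lists. DESeq2 called 1 gene each of the gluconeogenesis, cytokine and glucocorticoid lists and 0 of the others, and limma-voom called 0 genes in each of them. The metal, islet, Brunner gland and liver and blood lists, with 1 to 4 genes tested, had 0 by all 3 counts.

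**Figure D3:**
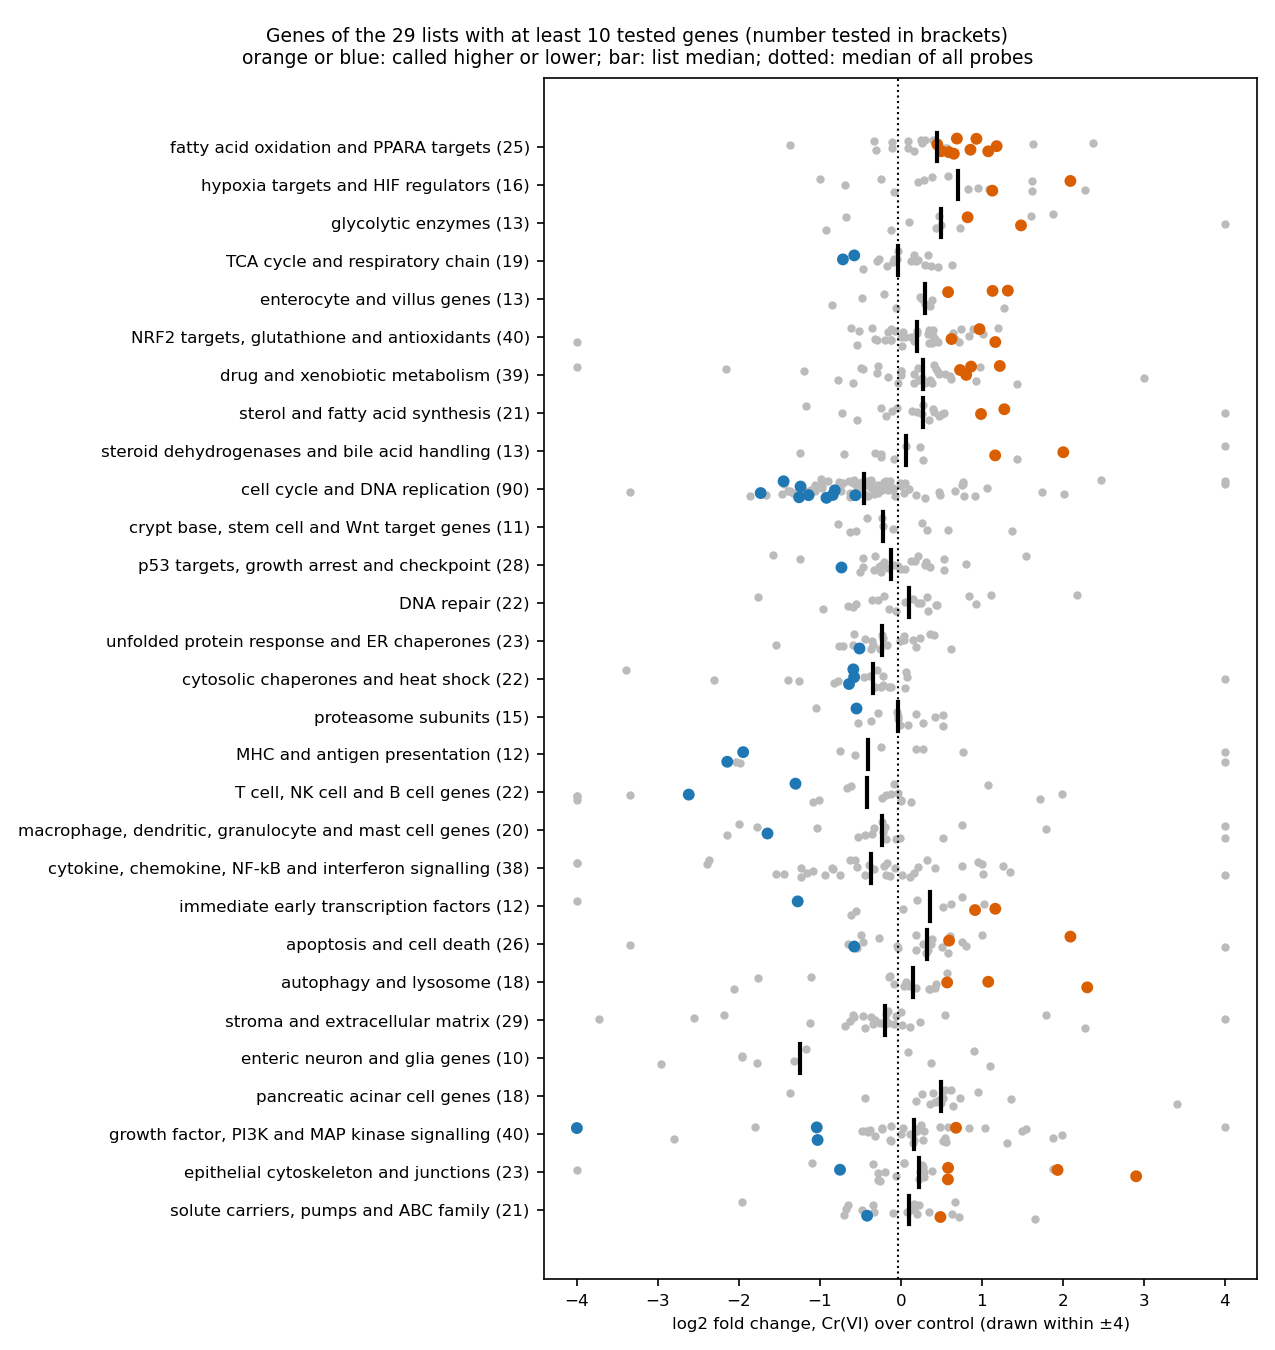
Each row is a gene list with at least 10 tested genes and each point a gene, placed by its log2 fold change of Cr(VI) over control (drawn within 4 either way); orange and blue points were called higher and lower, bars are list medians and the dotted line is the median of all probes at -0.03. Calls lie on 1 side in the fatty acid row (9 higher) and in the cell cycle row (9 lower). They also do in other rows with fewer calls, such as drug metabolism (4 higher) and cytosolic chaperones (3 lower).

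Markers of other cell types moved as follows, and their part in the results above was not tested. Of 7 smooth muscle genes, Flna, an actin crosslinker of muscle and other cells, fell; it was at 131, 239, 184, 104 and 382 CPM in control replicates 1 to 5 and from 32.2 to 84.8 CPM with a median of 69.97 after Cr(VI). The groups did not overlap, and its log2 fold change of -1.63 ± 0.30 passed in every alternative. Acta2 stood at -0.66 ± 0.21 log2 (adjusted p = 0.0549, edgeR) and Tagln at 0.19 ± 0.45, neither called, and the 7 genes summed to 2032 to 3554 CPM in the control libraries and 1557 to 2185 CPM in the Cr(VI) libraries. That sum includes Flna itself. Hspb6, a small heat shock protein of muscle outside the list and named for the size of its fall, had a log2 fold change of -2.12 ± 0.63. Of 29 stromal genes 0 were called, with Col1a1 at 0.011 ± 0.21, Col3a1 at 0.55 ± 0.33 and Fn1 at -0.055 ± 0.19 log2. Of 8 endothelial genes 0 were called, with Pecam1 at -0.999 ± 1.54, Kdr at 0.48 ± 0.58 and Tek at 0.54 ± 0.76. Of 10 enteric neuron and glia genes 0 were called, with Elavl4 at 0.90 ± 2.05, Tubb3 at -1.96 ± 0.83 and Ret at 0.095 ± 0.38. Of 6 enteroendocrine and tuft cell genes, Scg2, a granule protein of endocrine cells and neurons, fell from 91.5 ± 33.8 to 27.3 ± 15.8 CPM without overlap, and Chgb and Dclk1 were at -0.69 ± 0.28 and -0.14 ± 0.32 log2. The call ended for Hspb6 without the libraries over 50% acinar. Among the 12 fits without 1 library, calls ended for Hspb6 in 7.

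Of 3 goblet cell genes 0 were called, with Spdef at -0.76 ± 0.35, Zg16 at 0.0062 ± 0.44 and Foxa1 at -0.23 ± 0.83 log2. Zg16 was lowest and highest in the libraries with the lowest and highest acinar share of each group. In control it was at 15461 CPM in replicate 3 (19.0% acinar) and 81095 CPM in replicate 5 (73.4%). After Cr(VI) it was at 9708 CPM in replicate 5 (3.33%) and 96766 CPM in replicate 3 (79.3%). The part of pancreas in its level was not tested, so it is not read here as a goblet cell measure alone. Of 4 adipocyte genes, Cidec, a lipid-droplet protein of fat cells and enterocytes, rose by 0.99 ± 0.25 log2. The adipocyte genes, Cidec included, summed to 191 to 258 CPM in the control libraries and 332 to 652 CPM in the Cr(VI) libraries, without overlap. Fabp4, Cfd and Pparg, at 0.58 ± 0.45, 3.15 ± 1.82 and 0.57 ± 0.28, were not called. Of 18 acinar genes 0 were called (median 0.50 log2): Cpa1 was at 0.54 ± 1.76, Prss1 at 3.42 ± 1.65 and Prss2 at 0.62 ± 1.73. The islet genes Ins2 and Nkx2-2 stood at -2.58 ± 2.03 and -0.49 ± 1.29 log2, the Brunner gland list was tested by Egf alone at 0.29 ± 1.53, and of the liver and blood genes Ttr was at 0.061 ± 0.81, Hba-a2 at 0.13 ± 0.31 and Hbb-bs had no count in these 12 libraries, with 0 calls. The threshold was missed for Cidec without the libraries over 50% acinar and with limma-voom.

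Of 23 epithelial cytoskeleton and junction genes, 4 rose and 1 fell. Capg, an actin-capping protein, was at 27.9, 0, 24.5, 26.7 and 18.01 CPM in control replicates 1 to 5 and from 79.9 to 364 CPM with a median of 118 after Cr(VI). Its log2 fold change was 2.91 ± 0.57, the groups did not overlap, and Cr(VI) replicate 6 was the highest. The beta-tubulin Tubb2a rose by 1.94 ± 0.55 and the desmosomal cadherin Dsc2 by 0.58 ± 0.14 log2, with Krt8 as above, while the alpha-tubulin Tuba1b fell from 1323 ± 433 to 787 ± 161 CPM. Tjp1 and Cldn7, proteins of tight junctions, were at -0.19 ± 0.47 and 0.043 ± 0.14 log2, not called. Of 18 autophagy and lysosome genes, 3 rose: the vesicle GTPase Rab31 by 2.30 ± 0.52, the membrane protein Lamp1 by 0.57 ± 0.14 and Lipa as above. Ctsd and Sqstm1, at 0.19 ± 0.29 and 0.35 ± 0.26, were not called. The call did not hold for Tubb2a, Tuba1b, Rab31 and Lamp1 without the libraries over 50% acinar, and for Capg and Tubb2a with limma-voom. Leaving out control replicate 2, control replicate 4, Cr(VI) replicate 1 or Cr(VI) replicate 6 ended the call for Tubb2a.

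Of 40 growth factor and kinase genes, 1 rose and 3 fell. Mapk3 (ERK1) rose from 423 ± 87.8 to 679.8 ± 70.8 CPM. The insulin-like growth factor receptor Igf1r fell with a log2 fold change of -1.03 ± 0.30 and its ligand carrier Igfbp3 with -1.04 ± 0.30, the second probe of the latter not called. Ereg, an EGF receptor ligand, is the third. Egfr was at 0.84 ± 0.97 and Akt1 at 0.0074 ± 0.15 log2, neither called. Of 21 genes of solute carriers, pumps and the ABC family, Abcf1, a member that acts in translation and not in transport, rose and the sodium pump subunit Atp1b1 fell, with log2 fold changes of 0.49 ± 0.15 and -0.42 ± 0.13. The glucose transporter Slc2a2, the amino acid carrier Slc1a4 and the lactate carrier Slc16a3, at -0.48 ± 0.31, -1.96 ± 1.62 and 0.72 ± 0.28, were not called. Of 5 glucocorticoid genes 0 were called, with Tsc22d3 at 0.17 ± 0.18, Fkbp5 at 0.70 ± 0.37 and the receptor Nr3c1 at -0.58 ± 0.20 log2. The call was lost for Igf1r, Igfbp3, Abcf1 and Atp1b1 without the libraries over 50% acinar, and for Atp1b1 with the acinar probes taken out and with no filter. Of the 12 fits that each left out 1 library, the call was lost for Igf1r in 6, Igfbp3 in 8, Abcf1 in 6 and Atp1b1 in 8.

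Other named genes belong to no list. The creatine carrier Slc6a8 rose from 2618 ± 1169 to 5648 ± 790.1 CPM and the ribosomal protein Rplp0 from 289 ± 68.8 to 536 ± 106 CPM, neither with overlap. Gpr17, a G protein-coupled receptor, rose by 1.80 ± 0.51 log2, and the galactosyltransferase B4galt1 by 1.53 ± 0.49 with both probes called. Id4, an inhibitor of basic helix-loop-helix factors, fell with a log2 fold change of -1.62 ± 0.49. 5 called probes had no count in any Cr(VI) library, those of Rtn1, Ereg, Trbv1, Il11 and Cenpi, named after their values were seen. The other probe of Rtn1 was at 1.97 ± 2.76 CPM in control and 2.52 ± 4.30 CPM after Cr(VI) and was not called. The control means of the 5 probes lay under 10 CPM, and 1, 2, 2, 3 and 4 of the 5 control libraries, in that order, held no count either, so no fold is given. The call ended for Slc6a8, Gpr17, B4galt1 and Id4 without the libraries over 50% acinar, and for Gpr17, B4galt1 and Id4 with limma-voom, and for Id4 with no filter. Without Cr(VI) replicate 3, Gpr17 missed the threshold. Among the 12 fits without 1 library, calls ended for B4galt1 in 11 and Id4 in 8.

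The Cr(VI) libraries were then set directly against the higher dose of each fungicide, to find which of the 151 calls differed from another exposure. Over all probes, 118 (4.64%) differed from captan and 186 (7.32%) from folpet; of the 151 called, 19 differed from captan, 29 from folpet and 14 from both. Of the 14, 13 were lower after Cr(VI) than in all 3 other groups, and Ugdh was higher than in control and lower than after both fungicides. The same Cr(VI) libraries enter every comparison, so probes called against control are favoured to differ from the fungicides in the same direction. The share of all probes that differed from both was not counted, so the 14 are a description only. Acinar counts differed between these groups, with a median share of 50.9% after Cr(VI), 0.963% after captan and 24.2% after folpet, and their part in these differences was not tested. Without the libraries over 50% acinar, 2 of the 14 differed from captan, 5 from folpet and 1 from both. With library totals alone 14 differed from captan and 4 from folpet and from both, and with limma-voom, DESeq2 and the acinar probes taken out 10, 11 and 12 differed from both.

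Of the 14, 3 were chaperone genes. Fkbp4 was at 923 ± 115 CPM after Cr(VI), 1338 ± 172 after captan and 1395 ± 166 after folpet, and the control mean was 1385 ± 286. The Cr(VI) group lay -0.54 ± 0.12 log2 from captan and -0.60 ± 0.12 from folpet (adjusted p = 0.00324 and 0.000472, edgeR). Cct6a lay -0.60 ± 0.11 and -0.42 ± 0.11 log2 from captan and folpet, and Hsp90aa1 -0.64 ± 0.17 and -0.68 ± 0.17. Tuba1b was at 787 ± 161 CPM after Cr(VI) against 1494 ± 182 after captan and 1376 ± 214 after folpet. Rpn1 lay -0.59 ± 0.12 and -0.59 ± 0.12 log2 from captan and folpet, Hist1h3c -0.47 ± 0.14 and -0.50 ± 0.15, and Atp1b1 -0.44 ± 0.12 and -0.45 ± 0.12. The remaining genes were Hist2h3b, Rtn1, Srsf3, Ereg, Ugt2b35 and Rrm1, which the rule for named genes does not reach. Hspa1b, not called against control, was at 28.3 ± 18.5 CPM after Cr(VI), 495 ± 285 after captan and 934 ± 310.1 after folpet (adjusted p = 0.000693 and 5.33e-05, edgeR).

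**Figure D4:**
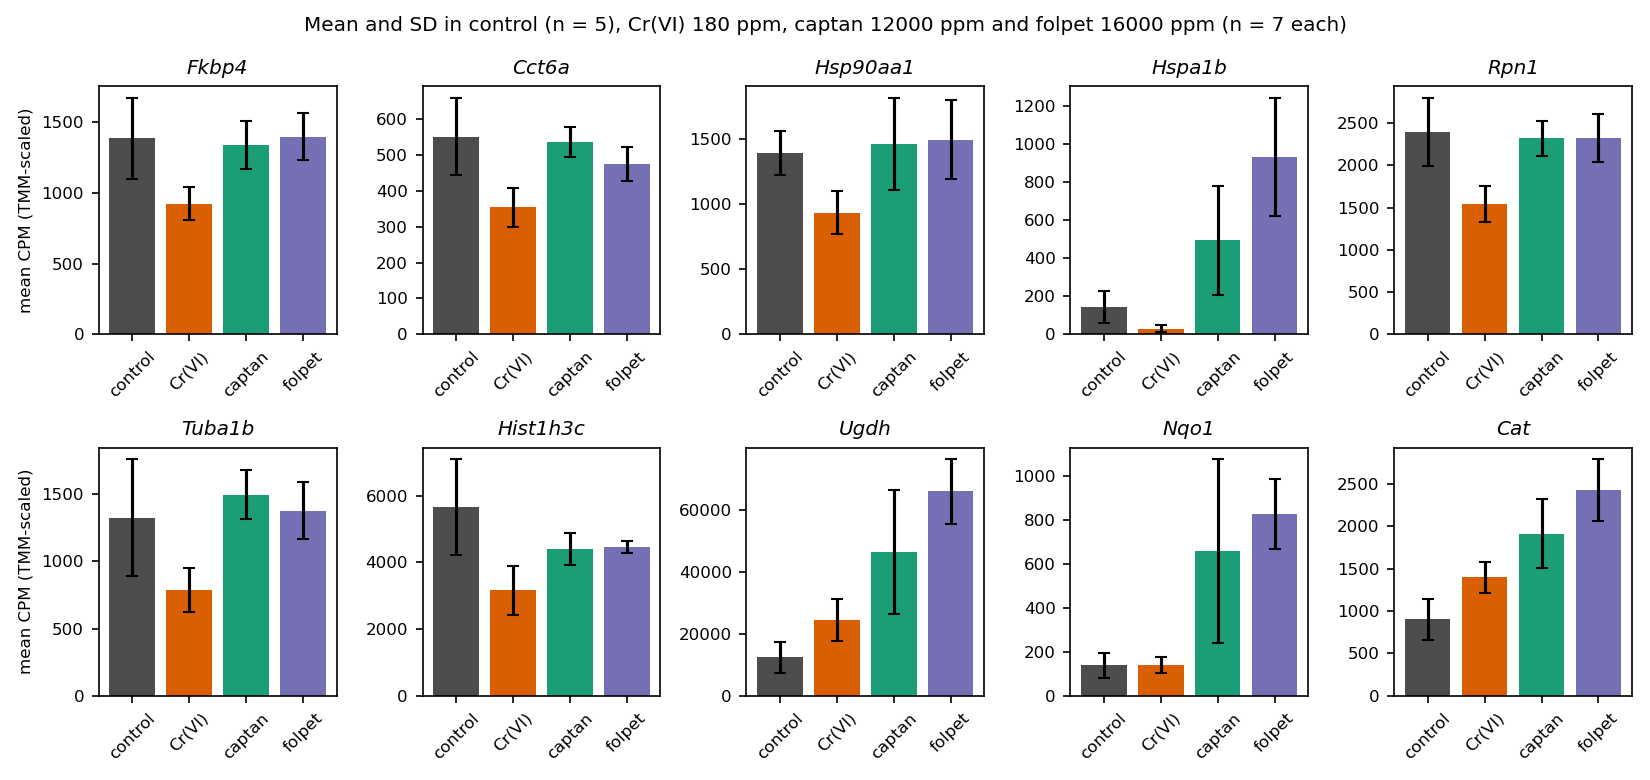
Bars are mean CPM with SD on TMM-scaled library sizes in control (n = 5) and in the Cr(VI), captan 12000 ppm and folpet 16000 ppm groups (n = 7 each). The first 7 panels show genes lowest after Cr(VI); Ugdh, Nqo1 and Cat were highest after folpet.

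Ugdh was at 24458 ± 6775 CPM after Cr(VI), 46221 ± 19988 after captan and 65816 ± 10359.5 after folpet, with log2 differences of -0.92 ± 0.26 and -1.43 ± 0.26. Nqo1 was at 141 ± 37.4 CPM after Cr(VI) against 659.9 ± 417 after captan and 828 ± 161 after folpet (adjusted p = 0.000323 and 2.9e-05, edgeR). Cat lay -0.80 ± 0.15 log2 from folpet (adjusted p = 0.000198) and -0.45 ± 0.15 from captan (adjusted p = 0.0593, edgeR), so only the former was called. Cr(VI) also lay lower than folpet for Aldh3a2, Nr1i3 and Abcb1a, with log2 differences of -0.75 ± 0.13, -0.65 ± 0.15 and -0.79 ± 0.22. Ppara lay 0.82 ± 0.18 log2 above captan, at 174 ± 32.8 against 98.8 ± 17.2 CPM, and its difference of 0.48 ± 0.18 from folpet was not called. Gzma lay -2.19 ± 0.48 log2 from captan, at 37.5 ± 18.7 against 173 ± 158 CPM. For Creb3l3, Cd74, Bnip3 and Dbp neither direct difference was called: Creb3l3 lay 0.37 ± 0.15 and 0.32 ± 0.15 log2 from captan and folpet, Cd74 -0.20 ± 0.27 and 0.34 ± 0.27, Bnip3 0.16 ± 0.35 and -0.38 ± 0.35, and Dbp 0.77 ± 0.27 and 0.69 ± 0.27, which does not show that the exposures acted alike.

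Of 74 named genes called against control, Cd74, H2-Aa, Itgae, Flna and Dbp kept their calls in all 10 alternative settings and with each of the 12 libraries left out in turn. With library totals alone, which shifted all probes, the other calls that held were those of Capg, Bnip3, Gzma, Prkch, Scg2, Ccnd2 and Igfbp3. With control and Cr(VI) libraries alone in the fit they were those of Me1, Por, Gzma, Creb3l3, Hsd17b11, Slc6a8, Rplp0, Mapk3, Ccnd2, Hist1h3a, Lipa, Aldh3a2, Car9 and Insig1. With 1 library left out, 48 of the 74 were called each time. The number called was 12 with library totals alone, 19 when the fit held control and Cr(VI) libraries alone, 28 without the libraries over 50% acinar and 53 with limma-voom, and 69 to 74 in the other 6 settings.

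**Figure D5:**
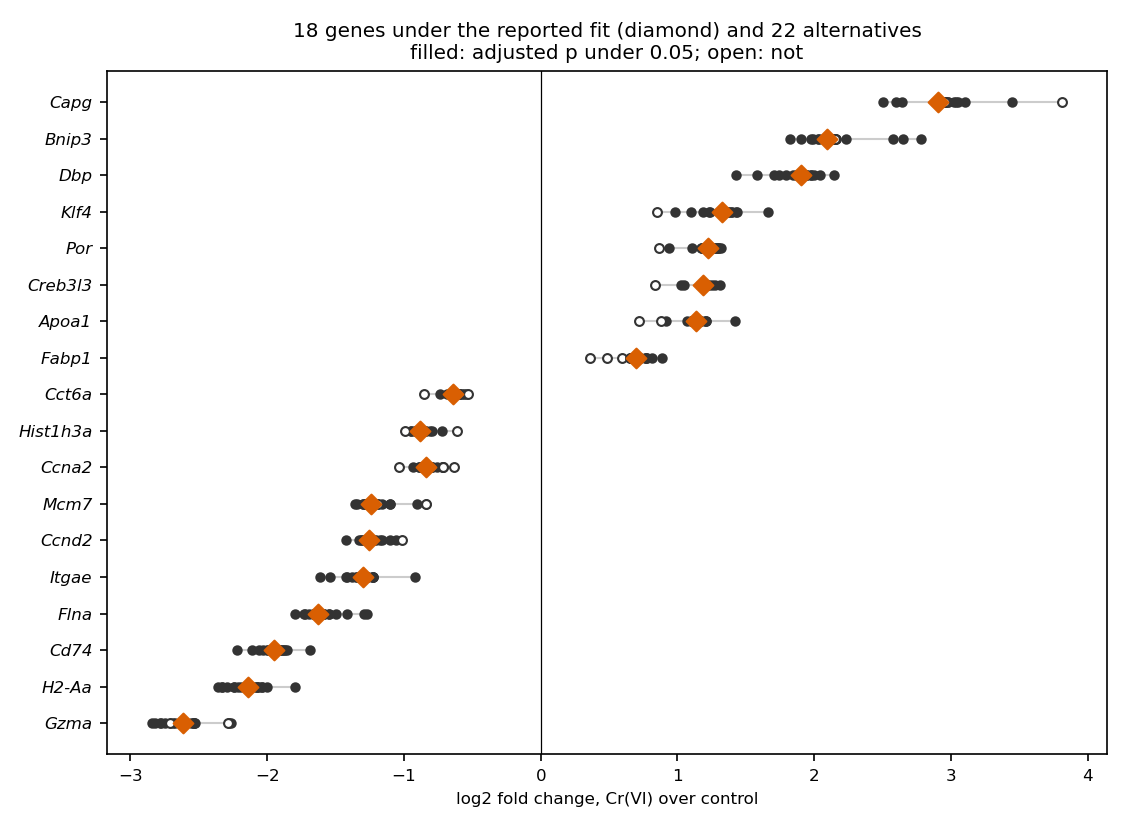
Log2 fold change of Cr(VI) over control on the x axis for 18 genes, with the reported fit as a diamond and each alternative setting or left-out library as a circle, filled where the adjusted p was under 0.05. No circle crosses 0, and Cd74, H2-Aa, Itgae, Flna and Dbp have filled circles alone.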

How the data were processed

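All 40 TempO-Seq libraries entered the fit, 5 control and 7 each of Cr(VI) and 4 fungicide groups. The authors deposited raw counts, whole numbers for each probe, in 1 table. Tools and a build named in the submitters' processing notes are Bowtie, bcl2fastq 2.17.1.14 and mm9, with no roles. Probe positions are not used here, and promoter coordinates are RefSeq's on GRCm38.p6. Columns were matched to samples by the labelled title, and all were used. Replicate numbers follow accession order. Symbols were matched to RefSeq, 98 by synonym and 57 not at all.

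The test was run in edgeR 4.0.16 under R 4.3.3: filterByExpr (minimum count 10, minimum total count 15, 2541 of 3045 probes kept), TMM, and a robust quasi-likelihood fit with 1 mean per group over all 40 libraries (34 residual degrees of freedom). Tests are 2-sided, and a call means an adjusted p (Benjamini-Hochberg, all tested probes) under 0.05. The standard error is the log2 fold change over the square root of F, an approximation. Log2 CPM used a prior count of 2. A gene with 2 probes is given by the one with more counts. On simulated counts with 200 changed probes, 30.3% of 2-fold and 62% of 4-fold changes were recovered with 4.81% false calls for Cr(VI) against control. These counts were drawn probe by probe from the fit's own spread, in 3 runs, without acinar content that varies between libraries. The rates hold for that model and do not give the false-call rate of the real libraries. Values of 0 made up 28.5% of the table. Counts of 1 to 5 made up 1.01% of the non-zero values, against 2.93% for counts of 21 to 25. No source used here says whether small counts were dropped before deposit, so a count of 0 need not mean an absent transcript. PCR products without molecular identifiers are not independent molecules, and total counts limit the precision of low genes. Probes of near-identical family members may share reads.

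Alternatives were DESeq2 1.42.0, limma-voom (limma 3.58.1), DESeq2's size factors, library totals, other filters, the 2 groups alone, acinar settings and each library left out. The comparison, the 43 gene lists and the rule for named genes were chosen with earlier results of these data known, so the lists' directions are not independent evidence. The rule takes, among called probes with a mean of at least 10 CPM in either group, the 12 largest rises and falls, the 12 smallest p-values in each direction and up to 6 called genes of each list, and, called or not, the first 3 tested genes of each list; it gives 175 genes, of which 168 are named and 7 are not reported here.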

Additional observations from a re-analysis of the deposited data

Results flagged for a closer look

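Values that stood apart from the rest of their own group by Dixon's 95% limit are given here for the named genes, in log2 CPM with the nearest other library in brackets; chance alone gives about 1 such group in 20, and there were 60 such values over the 336 groups of values tested. Control replicate 5, the shallowest library of the comparison, held the most. Control replicate 5 was the lowest of its group, apart from the others, in log2 CPM for Rab31 at -1.26 (nearest 2.72), Bnip3 at -1.26 (nearest 3.74), Hsd3b2 at -1.26 (nearest 3.81), Gpr17 at -1.26 (nearest 3.36), G6pc at -1.26 (nearest 5.07), Apoc3 at 5.88 (nearest 7.66), Fmo5 at 7.79 (nearest 8.95), Hmgcs1 at -1.26 (nearest 5.16), Mki67 at -1.26 (nearest 4.66), Ephb2 at -1.26 (nearest 4.64), Trp53 at 6.51 (nearest 8.02), Ddit3 at -1.26 (nearest 6.11), Cd68 at -1.26 (nearest 3.89), C1qa at 5.59 (nearest 7.41), Cxcl10 at -1.26 (nearest 4.97), Hlf at -1.26 (nearest 3.09), Bax at -1.26 (nearest 3.64), Tagln at -1.26 (nearest 5.80), Tubb3 at -1.26 (nearest 4.58), Nkx2-2 at -1.26 (nearest 3.44), Foxa1 at -1.26 (nearest 3.59) and Fabp4 at -1.26 (nearest 4.90). Cr(VI) replicate 3 was the lowest of its group, apart from the others, in log2 CPM for Fyn at -1.26 (nearest 3.88), Nup37 at 3.04 (nearest 5.23), Fabp1 at 13.49 (nearest 13.99), Pfkp at 6.91 (nearest 7.48), G6pc at -1.26 (nearest 3.61), Hsd11b2 at 3.50 (nearest 6.20), Psmb4 at -1.26 (nearest 3.08), Tnf at -1.26 (nearest 2.98), Nr3c1 at 5.92 (nearest 6.79) and Slc2a2 at 3.32 (nearest 5.54). Cr(VI) replicate 6 was the lowest of its group, apart from the others, in log2 CPM for Hspb6 at -1.26 (nearest 2.70), Hk1 at -1.26 (nearest 3.14), Ccna2 at 6.24 (nearest 7.25), Cd44 at 6.64 (nearest 7.56), Cxcl10 at -1.26 (nearest 2.34) and Bax at 2.82 (nearest 4.97). Cr(VI) replicate 5 was the lowest of its group, apart from the others, in log2 CPM for Cpa1 at 11.22 (nearest 16.06), Prss1 at 6.73 (nearest 11.44), Prss2 at 9.52 (nearest 14.06) and Egf at -0.87 (nearest 2.35). Control replicate 2 was the lowest of its group, apart from the others, in log2 CPM for Capg at -1.26 (nearest 4.20), Kdr at -1.26 (nearest 4.65) and Ttr at -1.26 (nearest 4.50). Cr(VI) replicate 2 was the lowest of its group, apart from the others, in log2 CPM for Prkch at -1.26 (nearest 2.53) and Egfr at -1.26 (nearest 2.80). Cr(VI) replicate 4 was the lowest of its group, apart from the others, in log2 CPM for Creb3l3 at 11.74 (nearest 11.995) and Foxa1 at -1.26 (nearest 2.64). Control replicate 4 was the highest of its group, apart from the others, in log2 CPM for Mt2 at 1.45 (nearest -1.26) and Dclk1 at 6.44 (nearest 5.69). Cr(VI) replicate 6 was the highest of its group, apart from the others, in log2 CPM for Capg at 8.51 (nearest 6.92). Cr(VI) replicate 5 was the highest of its group, apart from the others, in log2 CPM for Me1 at 9.09 (nearest 8.72). Control replicate 2 was the highest of its group, apart from the others, in log2 CPM for Itgae at 8.91 (nearest 7.78). Control replicate 3 was the highest of its group, apart from the others, in log2 CPM for Hmox1 at 2.85 (nearest -1.26). Control replicate 5 was the highest of its group, apart from the others, in log2 CPM for Mcm7 at 8.59 (nearest 7.34). Cr(VI) replicate 2 was the highest of its group, apart from the others, in log2 CPM for Cdkn1a at 8.64 (nearest 8.42). Control replicate 3 was the lowest of its group, apart from the others, in log2 CPM for Cd79a at 3.55 (nearest 5.39). Control replicate 1 was the highest of its group, apart from the others, in log2 CPM for Cd3d at 2.16 (nearest -1.26). Cr(VI) replicate 3 was the highest of its group, apart from the others, in log2 CPM for Igfbp3 at 8.27 (nearest 7.15). Whether depth or section content set these values was not tested.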

How the results depend on the processing

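The count of probes called for Cr(VI) against control was 151 (75 higher, 76 lower). It was 14 with library totals alone (3 and 11), 231 with DESeq2 (125 and 106), 28 when the fit held control and Cr(VI) libraries alone (17 and 11) and 47 without the libraries over 50% acinar (29 and 18). The cause was not tested, though the last 2 settings use fewer libraries. With DESeq2's size factors, limma-voom, no filter, a mean of at least 50 counts, the acinar probes taken out and the acinar covariate it was 113 to 176, and with each library left out 115 to 159. Against captan 12000 ppm it was 118, and 504 with library totals alone, 185 with DESeq2 and 26 without the libraries over 50% acinar. Against folpet 16000 ppm it was 186, and 66 with library totals alone and 111 without those libraries. The acinar share differed by 4.95 percentage points, and by 1.45 over the 5 most abundant acinar probes. No paired analysis was possible because the labels give no replicate numbers. All 151 calls kept their direction where tested, except that of Cenpi, which had no count left without control replicate 2. The sign of the log2 fold change turned only among named genes that were not called. With library totals alone it was -0.13 for Pfkp, -0.26 for Apoc3, -0.41 for Hmgcs1, -0.10 for Cdkn1a, -0.069 for Cd79a, -0.15 for Tsc22d3, -0.43 for Hlf, -0.11 for Ctsd, -0.15 for Tagln, -0.31 for Col1a1, -0.043 for Kdr, -0.23 for Ret, -0.41 for Zg16, -0.24 for Egf, -0.22 for Hba-a2, -0.31 for Akt1 and -0.29 for Cldn7. Without libraries over 50% acinar it was -0.20 for Apoc3, 0.057 for Mt1, 0 for Mt2, 0.21 for Nqo1, -1.24 for Cyp1a1, -0.34 for Hmgcs1, 0.042 for Nr1h4, 0.18 for Mdm2, -0.34 for Cd68, 0.24 for Csf1r, 0.10 for Tnf, -0.12 for Tsc22d3, -0.59 for Hlf, -0.12 for Col1a1, -0.18 for Zg16, 0.21 for Dclk1, -0.099 for Fabp4, -0.059 for Hba-a2, 0.75 for Tjp1 and -0.053 for Cldn7. With DESeq2 size factors in edgeR it was 0.021 for Nqo1. With acinar probes taken out it was 0.064 for Nqo1 and 0.015 for Fn1. With DESeq2 it was 0.023 for Nqo1. With limma-voom it was 0.0076 for Nqo1, 0.53 for Gclc, -0.0019 for Cyp1a1, 0.21 for Mdm2, -0.019 for Ret, -0.048 for Zg16, -0.076 for Hbb-bs, -0.014 for Akt1 and 0.39 for Tjp1. With no filter it was 0.020 for Nqo1. With at least 50 counts on average it was 0.011 for Nqo1 and -0.0015 for Zg16. With control and Cr(VI) libraries alone it was 0.039 for Nqo1. With acinar share as covariate it was 0.015 for Nqo1, 0.030 for Gclc, -0.52 for Cpa1, -0.56 for Prss2, -0.25 for Zg16, -0.082 for Egf, 0.11 for Hbb-bs and -0.028 for Akt1. With single libraries left out, the log2 fold changes whose sign turned ranged over Apoc3 -0.0038 to 0.38, Alas2 -1.70 to 0.28, Nqo1 -0.12 to 0.23, Gclc -0.40 to 0.61, Hmox1 -6.10 to 0, Cyp3a11 -0.48 to 0.22, Hmgcs1 -0.096 to 0.64, Nr1h4 -0.60 to 0.13, Ephb2 -0.54 to 0.023, Mdm2 -0.45 to 0.31, Brca1 -1.63 to 0.038, Hspa5 -0.42 to 0.062, Cd79a -0.10 to 0.30, Cd3d -5.36 to 0, Csf1r -2.85 to 0.34, Tnf -0.60 to 0.19, Egr1 -0.92 to 0.40, Hlf -0.30 to 0.54, Tagln -0.12 to 0.45, Col1a1 -0.11 to 0.21, Fn1 -0.22 to 0.17, Pecam1 -1.77 to 0.19, Ret -0.073 to 0.29, Zg16 -0.35 to 0.41, Foxa1 -0.54 to 0.25, Dclk1 -0.24 to 0.084, Egf -0.051 to 1.45, Ttr -0.24 to 0.66, Hba-a2 -0.058 to 0.26, Akt1 -0.059 to 0.089, Tjp1 -0.41 to 0.39 and Cldn7 -0.057 to 0.12.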
